A study of Mus musculus with 10 samples.

Results

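Genes of oxidative phosphorylation were followed through the cell populations of the mouse testis. The members are the genes whose symbols begin with Nduf, Uqcr, Cox4 to Cox8 or Atp5, the genes Sdha to Sdhd, and the protein-coding genes of mitochondrial DNA. By this rule 105 genes were members, out of 28125 genes in the scRNA-seq matrix and 30670 genes in the scATAC-seq matrix, and all 105 were in both. Of these, 92 are nuclear genes and 13 are mitochondrial genes. No measured value entered the rule.

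Nuclei of testes were profiled by scRNA-seq and scATAC-seq at once on a BD Rhapsody system, with 1 library per condition and assay. The conditions were wild-type mice at 11, 17 and 25 dpp (days post partum) and 8-week-old mice of 2 genotypes, Cre/+ and Nfya-CKO. Both adult genotypes carry a Cre recombinase inserted at Stra8, a gene switched on in spermatogonia, and in Nfya-CKO it acts on floxed alleles of Nfya, the DNA-contacting subunit that with NFYB and NFYC forms the CCAAT-binding factor NF-Y. The authors sorted the scRNA-seq cells into 13 populations, namely spermatogonia, split into undifferentiated (undiff. SpG) and differentiating (diff. SpG) ones, spermatocytes at preleptotene (pL), 2 groups of early meiotic prophase (eL/L/Z and L/Z/eP), middle and late pachytene (mP/lP) and diplotene spermatocytes (D), round spermatids (RS), elongating spermatids (ES), SpG of Nfya-CKO, Sertoli cells, other somatic cells and unknown cells. Population values are the authors' pooled means over all libraries, so they carry no replicate error and no p-value could be given. Nfya RNA was 1.11 UMIs (unique molecular identifiers) per 10000 in SpG Nfya-CKO against 0.456 in undiff. SpG and 0.667 in diff. SpG. RNA of the targeted gene was thus above both, against the label of that library, and the matrix, with 1 value per gene, does not show the floxed exons apart. Other measures ran the way the label says. The paper reports loss of NFYA protein from germ cells of this genotype. The Nfya-CKO library held 0 cells named pL, L/Z/eP, mP/lP, RS or ES, with 4 named eL/L/Z and 4 named D.

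Oxidative phosphorylation couples the transfer of electrons from NADH and succinate to oxygen with the making of ATP. Complexes I to IV pass on the electrons, complexes I, III and IV pump protons across the inner mitochondrial membrane, and ATP synthase uses the gradient. Mitochondrial DNA encodes subunits of all of these but complex II, and nuclear genes encode the rest, some of them with paralogs used in a single tissue. Cox6b2, Cox7b2 and Cox8c are testis paralogs of the complex IV subunits Cox6b1, Cox7b and Cox8a.

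Cell barcodes were shared between libraries, which touches several results below. Of 39674 barcodes in the scRNA-seq table, 5030 occurred in more than 1 library. The Cre/+ and Nfya-CKO libraries shared 3813 barcodes, 74.0% of the 5152 cells of the Nfya-CKO library. Of its 4633 cells named other somatic, 3628 had a barcode of the Cre/+ library, with a median of 1209 UMIs here and 9447 UMIs there, and 1110 of those Cre/+ cells were mP/lP. Of 491 SpG Nfya-CKO cells, 175 had a Cre/+ barcode, with a median of 21471 UMIs here and 2275 there, and 143 of those Cre/+ cells were named diff. SpG. The pooled matrix could not be rebuilt without these cells, so only the mitochondrial share of UMIs is given with and without them. SpG Nfya-CKO held the spermatogonial markers Gfra1 (1.20 UMIs per 10000, against 1.08 in undiff. SpG) and Zbtb16 (4.15 against 8.74). They also held Leydig cell RNA, with a summed level of 5 markers of 49.3 UMIs per 10000 against 0.208 in undiff. SpG and 218.2 in other somatic cells, led by Insl3 (39.8 in SpG Nfya-CKO). The sum of 5 Sertoli markers was 24.4 in SpG Nfya-CKO against 3.70 in undiff. SpG and 56.0 in Sertoli cells, led by Clu (22.8 in SpG Nfya-CKO). Diff. SpG, of which 84.5% were adult Cre/+ cells, held 9.88 UMIs per 10000 of 4 elongating spermatid markers, against 0.511 in undiff. SpG. How much of each member's level came from other cells was not tested. Median depth ran from 1525 UMIs per cell in other somatic cells to 18361 in SpG Nfya-CKO.

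The testis paralogs of complex IV were lower in undiff. SpG than in mP/lP, by different amounts. Levels below are mean UMIs per 10000 UMIs of a cell, and each gene is compared with itself in other populations, since reads were not divided by gene length. Cox6b2, a subunit on the intermembrane side of complex IV, was at 0.368 in undiff. SpG, 3.88 in diff. SpG, 0.157 in pL, 0.748 in eL/L/Z, 1.72 in L/Z/eP, 3.94 in mP/lP, 5.73 in D, 14.6 in RS and 7.94 in ES. It was lowest in pL among the germ cell populations and highest in RS, and the value of diff. SpG stood apart from both neighbours. Cox8c, the testis form of the small subunit encoded in somatic cells by Cox8a, was at 0.325 in undiff. SpG, 0.155 in pL, 2.78 in L/Z/eP, 6.48 in mP/lP, 4.06 in D, 2.73 in RS and 3.69 in ES. It therefore was highest in mP/lP, before Cox6b2. Cox7b2 was at 0.789 in undiff. SpG, 0.522 in pL, 1.94 in L/Z/eP, 2.75 in mP/lP and 1.07 in ES, a narrower range. In mP/lP against undiff. SpG, the log2 ratio (after adding 0.1 to each value) was 3.95 for Cox8c, 3.11 for Cox6b2 and 1.68 for Cox7b2.

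The paralog Ndufa4l2, whose partner Ndufa4 is now counted as a complex IV subunit, followed at a low level, from 0.00780 in pL to 0.192 in mP/lP and 0.347 in ES. Cox7a1, the heart and muscle form of Cox7a2, did not follow, with 0.0579 in undiff. SpG and 0.0174 in mP/lP. The remaining paralogs Cox4i2, Cox6a2 and Cox8b, known from lung, heart and muscle, had a mean under 0.05 over the 13 populations and were not compared. In Sertoli cells Cox6b2 was at 0.0473, Cox7b2 at 0.108 and Cox8c at 0.0502, all under their lowest germ cell population.

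Of the general counterparts, 4 of 7 were lower in mP/lP than in undiff. SpG by at least 2-fold, against 20.8% of all genes tested. Cox6b1 was at 1.67 in undiff. SpG, 1.41 in pL, 0.450 in L/Z/eP, 0.405 in mP/lP, 0.351 in RS and 0.828 in ES. Cox8a was at 1.18 in undiff. SpG, 0.214 in mP/lP, 0.119 in RS and 0.334 in ES. Cox7b was at 0.297 in undiff. SpG, 0.0536 in mP/lP and 0.0193 in RS, and Ndufa4 at 0.581, 0.208 and 0.104. In mP/lP these 4 had log2 ratios of -1.81 for Cox6b1, -2.03 for Cox8a, -1.37 for Cox7b and -1.14 for Ndufa4. The other 3 did not reach 2-fold, at -0.01 for Cox4i1, -0.31 for Cox6a1 and 0.46 for Cox7a2.

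**Figure D1:**
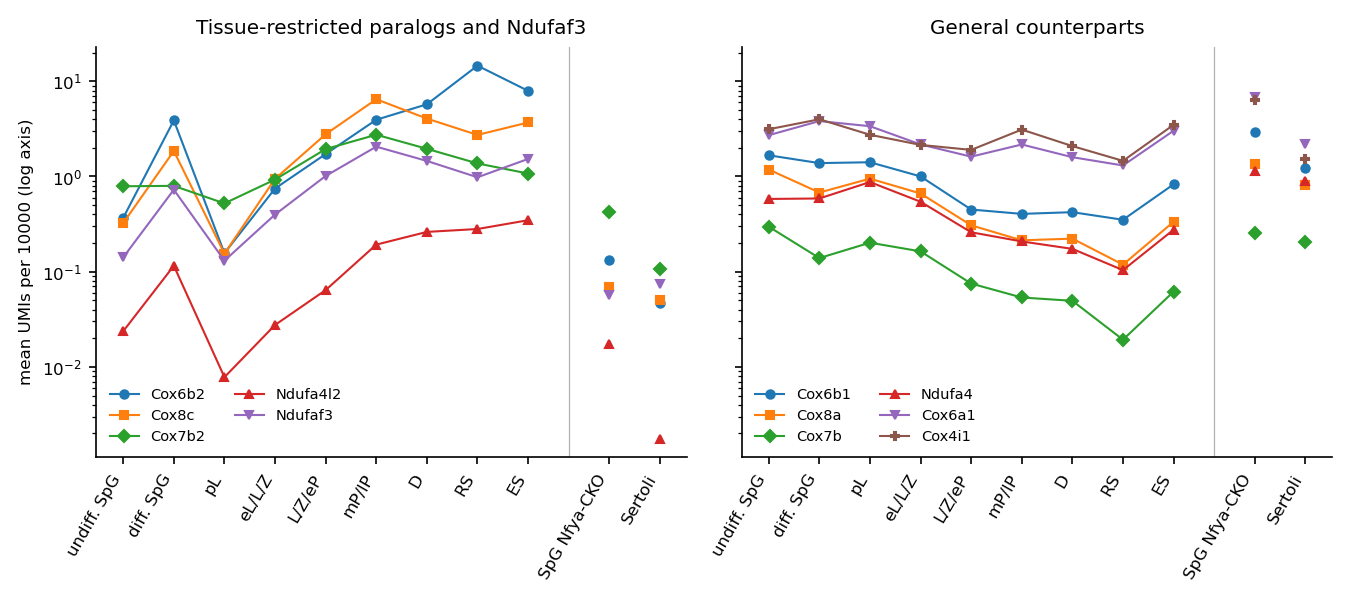
Mean UMIs per 10000 (log axis) in 9 germ cell populations, SpG Nfya-CKO and Sertoli cells, 1 pooled value per point and no error bars. Left, the tissue-restricted paralogs Cox6b2, Cox8c, Cox7b2 and Ndufa4l2 with Ndufaf3. Right, the general counterparts Cox6b1, Cox8a, Cox7b, Ndufa4, Cox6a1 and Cox4i1. Cox7a1 and Cox7a2, at log2 ratios of -0.43 and 0.46 in mP/lP against undiff. SpG, are not drawn, nor are Cox4i2, Cox6a2 and Cox8b. Among the 9 germ cell populations, Cox6b2 runs from 0.157 in pL to 14.6 in RS, while Cox6b1 runs from 1.67 in undiff. SpG to 0.351 in RS.

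The testis paralogs were higher in diff. SpG than in pL, and so were markers of later cells. In diff. SpG, Cox6b2 was at 26.6% of its highest germ cell level, Cox7b2 at 29.0% and Cox8c at 28.6%. The lactate dehydrogenase Ldhc was at 29.4%, the acrosomal gene Acrv1 at 16.5% and the protamine Prm1 at 9.65%. In pL, the same values were 1.07% for Cox6b2, 19.0% for Cox7b2 and 2.39% for Cox8c. Ldhc was there at 0.969%, Acrv1 at 0.121% and Prm1 at 0.0129%. Cox7b2 thus differed less between diff. SpG and pL than the other genes listed. Other somatic cells, where 78.3% of the Nfya-CKO cells had a Cre/+ barcode, held Cox6b2 at 1.86 and Cox8c at 1.41 UMIs per 10000, with Ldhc at 2.67. In SpG Nfya-CKO, Cox6b2 was at 0.132, Cox7b2 at 0.421, Cox8c at 0.0691 and Ldhc at 0.0492, all below undiff. SpG. In undiff. SpG, the percents of the highest germ cell level were 2.52% for Cox6b2, 28.7% for Cox7b2 and 5.01% for Cox8c. Ldhc was there at 4.96%, Acrv1 at 2.19% and Prm1 at 0.380%. The part of RNA from later cells in the undiff. SpG, diff. SpG and other somatic values was not tested.

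NF-Y binds CCAAT, and 6 promoters are shown for that motif: the testis paralogs Cox6b2 and Cox7b2, the general form Cox6b1, the assembly factor Ndufaf3, and Atp5g1 and Cox7a2l, which were lower in both assays in SpG Nfya-CKO. Windows of 300 bases, from 250 bases before to 50 bases after the annotated start, were taken from RefSeq (GRCm38.p6) and are written 5' to 3' on the strand of the gene. Capitals mark CCAAT on either strand.
Cox6b2 (chr7:4753045-4753344, minus strand): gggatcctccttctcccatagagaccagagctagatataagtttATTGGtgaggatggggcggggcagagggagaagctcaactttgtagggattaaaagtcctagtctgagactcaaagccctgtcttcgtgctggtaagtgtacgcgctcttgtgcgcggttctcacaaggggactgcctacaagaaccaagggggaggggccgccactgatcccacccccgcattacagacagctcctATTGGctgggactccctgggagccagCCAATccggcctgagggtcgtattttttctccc
Cox6b1 (chr7:30626065-30626364, minus strand): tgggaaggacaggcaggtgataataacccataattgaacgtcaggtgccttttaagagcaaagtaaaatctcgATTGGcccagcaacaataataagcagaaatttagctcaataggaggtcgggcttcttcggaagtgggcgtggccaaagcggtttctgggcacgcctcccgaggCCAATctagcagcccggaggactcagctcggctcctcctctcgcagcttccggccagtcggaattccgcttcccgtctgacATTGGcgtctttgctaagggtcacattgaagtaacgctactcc
Cox7b2 (chr5:71548156-71548455, minus strand): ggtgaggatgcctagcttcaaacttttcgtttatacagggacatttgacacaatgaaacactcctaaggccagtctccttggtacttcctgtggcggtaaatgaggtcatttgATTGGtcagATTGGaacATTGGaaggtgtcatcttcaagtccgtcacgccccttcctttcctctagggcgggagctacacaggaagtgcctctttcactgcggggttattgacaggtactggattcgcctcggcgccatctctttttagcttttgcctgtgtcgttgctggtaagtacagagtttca
Ndufaf3 (chr9:108567387-108567686, minus strand): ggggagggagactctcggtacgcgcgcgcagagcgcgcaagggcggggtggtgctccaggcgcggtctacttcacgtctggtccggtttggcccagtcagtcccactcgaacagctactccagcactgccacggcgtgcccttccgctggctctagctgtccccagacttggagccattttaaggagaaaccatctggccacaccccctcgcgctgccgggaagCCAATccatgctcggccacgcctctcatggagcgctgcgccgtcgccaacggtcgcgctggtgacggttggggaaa
Atp5g1 (chr11:96075582-96075881, minus strand): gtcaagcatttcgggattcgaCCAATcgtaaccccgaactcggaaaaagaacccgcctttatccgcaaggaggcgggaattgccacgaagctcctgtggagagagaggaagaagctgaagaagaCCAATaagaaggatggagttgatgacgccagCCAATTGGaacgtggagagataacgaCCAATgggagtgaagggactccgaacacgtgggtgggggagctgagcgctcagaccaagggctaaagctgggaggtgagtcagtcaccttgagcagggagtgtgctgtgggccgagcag
Cox7a2l (chr17:83514284-83514583, minus strand): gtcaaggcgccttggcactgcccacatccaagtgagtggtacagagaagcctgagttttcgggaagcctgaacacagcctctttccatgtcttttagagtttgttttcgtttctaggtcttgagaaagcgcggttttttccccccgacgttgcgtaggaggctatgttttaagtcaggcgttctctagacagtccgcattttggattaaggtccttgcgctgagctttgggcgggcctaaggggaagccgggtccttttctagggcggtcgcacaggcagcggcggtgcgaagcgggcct
Cox6b2 and Cox6b1 each held 3 matches. In Cox6b2 the first base of each match lay at -206, -9 and 17 from the start, and in Cox6b1 at -177, -74 and 7. In Cox7b2, 3 matches stood close together between -137 and -120. Ndufaf3 held 1 match, at -26, and Atp5g1 5 matches, of which a pair overlapped. Cox7a2l held 0 matches.

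Promoter windows were found for 76 of 92 nuclear members. CCAAT was in the windows of 34 members, 44.7%, against 41.1% of 27025 genes with a window. A pair or more of matches was found in 15 members, against 13.3% of all genes. NRF1 is known as a regulator of nuclear genes for respiration, and its motif, GCGCA and GCGC with any 1 base between, was in 19 members, 25.0%, against 5.19% of all genes. The ETS motif CCGGAAG was in 18 members, 23.7%, against 9.93%, and the YY1 motif AAGATGG in 12 members, 15.8%, against 7.28%. Both strands were searched, and a match is a description of the sequence only.

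On the X chromosome, which is silenced in pachytene, lie 3 members. Ndufb11, an accessory subunit of complex I, was at 0.228 in undiff. SpG, 0.114 in pL, 0.0931 in L/Z/eP, 0.0458 in mP/lP, 0.0399 in RS and 0.184 in ES. Cox7b, given above, was likewise lowest in RS. Ndufa1, an accessory subunit of complex I that is needed for its assembly, was at 0.364 in undiff. SpG, 0.937 in pL, 1.29 in L/Z/eP, 0.825 in mP/lP, 0.360 in RS and 0.660 in ES. Ndufa1 was thus higher in mP/lP than in undiff. SpG, with a log2 ratio of 0.997 against -1.17 for Ndufb11, and its gene bounds overlap Rnf113a1. The bounds of Ndufb11 overlap Rbm10. Among members named elsewhere, those of Ndufa4l2 overlap Shmt2, of Ndufa2 Tmco6, of Atp5d Cbarp and of Uqcrq Gdf9. Those of Ndufv2 overlap Ankrd12, of Atp5j Gabpa, of Uqcrc2 Pdzd9, of Cox7a2 Tmem30a, of Cox4i2 Bcl2l1 and of Cox6a2 Itgad. Those of Uqcr10, Cox7c, Atp5l, Ndufaf2, Ndufaf4 and Ndufaf5 overlap genes with Gm symbols. Whether reads were counted by strand is not given in the sources used here, so values of these genes are uncertain. The scATAC-seq value of Ndufa1, per 1000000 over nuclear genes, was also higher, at 13.2 in undiff. SpG and 36.2 in mP/lP, while Ndufb11 was at 35.4 and 37.3 and Cox7b at 15.1 and 12.1.

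In mP/lP the shares of nuclear members past 2-fold were near or under those of all genes, while single members differed widely. Of 89 nuclear members with a mean of at least 0.05, 12 (13.5%) were at least 2-fold higher in mP/lP than in undiff. SpG, against 13.9% of 15250 genes, and 9 (10.1%) at least 2-fold lower, against 20.8%. The median log2 ratio was 0.22 for the nuclear members and -0.14 for all genes. The summed level of the 92 nuclear members was 67.3 UMIs per 10000 in undiff. SpG, 75.1 in pL, 88.5 in mP/lP, 59.2 in RS and 82.4 in ES. Without the 8 tissue-restricted paralogs it was 65.7 in undiff. SpG, 75.1 in mP/lP and 40.2 in RS.

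Complex I assembly factors, which are not part of the finished complex, lay on both sides of undiff. SpG. Ndufaf3 was at 0.141 in undiff. SpG, 0.131 in pL, 1.01 in L/Z/eP, 2.06 in mP/lP and 0.981 in RS, a log2 ratio of 3.16 in mP/lP. Ndufaf7, a methyltransferase for a complex I subunit, was at 0.229 and 0.756, a log2 ratio of 1.38. Ndufaf4 went from 0.523 to 0.192 and Ndufaf5 from 0.373 to 0.136, and both were at least 2-fold lower. Ndufaf3, like the testis paralogs, was low in SpG Nfya-CKO, at 0.0564.

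Among the structural subunits of complex I, Ndufa12 was at 0.414 in undiff. SpG and 1.71 in mP/lP, a log2 ratio of 1.81. Ndufv2, a core subunit of the NADH-oxidizing arm, was at 0.770 and 1.80, a log2 ratio of 1.12. All 4 complex II subunits were between 0.01 and 0.47 on the log2 scale, with Sdhd highest, at 0.973 and 1.39. In complex III, Uqcrq was at 0.815 in undiff. SpG and 2.57 in mP/lP, a log2 ratio of 1.55, and its bounds overlap Gdf9. In ATP synthase, Atp5g1, which encodes the c subunit of the rotor, was at 1.22 and 0.413, a log2 ratio of -1.36, while Atp5j was highest of its group at 0.96. The supercomplex factor Cox7a2l was at 1.22 in undiff. SpG, 0.775 in pL and 0.449 in mP/lP, a log2 ratio of -1.27.

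Round spermatids had the lowest level of most nuclear members. Among the 9 germ cell populations, 53 of 89 nuclear members were lowest in RS, against 29.8% of all genes tested. Of the mP/lP cells, 70.7% came from the 25 dpp library. Of the RS cells 77.0%, and of the ES cells 99.6%, came from the 8-week-old Cre/+ library. Stage, age and library were thus not separated in these pooled values. In RS against mP/lP, 17 (19.1%) were at least 2-fold lower, against 9.36% of all genes, and 1 (1.12%) at least 2-fold higher, against 17.6%. That 1 was Cox6b2, at a log2 ratio of 1.86. The median was -0.71 for the nuclear members and -0.08 for all genes. With a pseudocount of 0.5, 3 of 89 were at least 2-fold lower, close to the 2.86% of all genes, and the median was -0.41. Complex II gave -1.04, with Sdha, the flavoprotein subunit, at 1.79 in mP/lP and 0.661 in RS. Uqcrc2, a core subunit of complex III, was at 1.39 and 0.479, and the rotor subunit gene Atp5g3 at 2.24 and 0.832. The median log2 ratios of the complexes ran from -0.59 for the assembly factors to -1.04 for complex II, so no complex stood out in sign. Nuclear members above 0 besides Cox6b2 were Atp5l, at 0.121 and 0.198, with 3 near-identical genomic copies that make its reads uncertain, Ndufaf2, at 0.802 and 1.05, and Ndufa4l2, at 0.192 and 0.281. Of the 8 mitochondrial members, 3 were above 0, mt-Co1 at a log2 ratio of 0.27, mt-Nd1 at 0.25 and mt-Nd5 at 0.11, and the median was -0.08.

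In ES against RS, 13 nuclear members (14.6%) were at least 2-fold higher, against 10.1% of all genes, and 0 at least 2-fold lower, against 10.0%, with a median of 0.60 against 0.13. Relative to the median of all genes, 7 of 89 members were higher, a share close to the 7.83% of genes, and with a pseudocount of 0.5 the share was smaller, with 1 of 89 against 2.81%. Ndufc2, an accessory subunit of complex I, was at 0.349 in RS and 0.948 in ES, and Cox4i1 at 1.46 and 3.49. Cox6b2 was among the lowest, at a log2 ratio of -0.87, with Ndufaf2 at -0.92 and Atp5l at -0.73. The ES population also held 5 Sertoli markers at a sum of 35.9 UMIs per 10000, against 3.68 in RS and 56.0 in Sertoli cells, led by Clu at 31.3, and 5 Leydig markers at 5.70 against 0.786. Sox9 was at 1.90 in ES, 0.299 in RS and 10.7 in Sertoli cells, and Wt1 at 2.45, 0.424 and 10.1. In the same order, Rhox5 was at 0.193, 0.0456 and 0.222, and Amh at 0.00436, 0.00641 and 0.927. Of the Cre/+ ES cells, 59.8% shared a barcode. The part of other cells in the ES values was not tested.

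In SpG of the library labelled Nfya-CKO, 57 nuclear members were above and 32 below undiff. SpG, while all 8 mitochondrial members compared were below. Of all 15250 genes tested, 7758 were above and 7491 below. SpG Nfya-CKO are all from 8-week-old mice, whereas of 1292 undiff. SpG 646 cells came from 11 dpp, 262 from 17 dpp and 280 from 25 dpp wild-type mice and 102 from 8-week-old Cre/+ mice, so age and genotype cannot be told apart here or in scATAC-seq. Of 89 nuclear members, 9 (10.1%) were at least 2-fold higher, against 4.09% of 15250 genes, and 5 (5.62%) at least 2-fold lower, against 3.08%. With diff. SpG as control, 3 were at least 2-fold higher, against 6.86% of all genes, so the larger share of higher members did not hold there. With pL as control, 12 were at least 2-fold higher, against 9.05% of all genes. The median log2 ratio to undiff. SpG was 0.22, against 0.01 for all genes. For the nuclear members it was 0.15 with diff. SpG and 0.07 with pL as control, and for all genes -0.01 and 0.08. Of 8 mitochondrial members with a mean of at least 0.05, 6 were at least 2-fold lower, 0 were higher, and the median was -1.44.

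The 5 nuclear members with the largest ratios above 0 belong to ATP synthase and complexes I, III and IV. Atp5j2, subunit f of ATP synthase, was at 0.352 in undiff. SpG, 0.774 in diff. SpG, 0.377 in pL and 1.60 in SpG Nfya-CKO, a log2 ratio of 1.91. Cox6c was at 1.39, 3.10, 1.30 and 4.61 in the same order, a log2 ratio of 1.66. Uqcr10 was at 0.241, 0.358, 0.235 and 0.837, Cox6a1 at 2.72, 3.82, 3.38 and 6.90, and Ndufa2 at 1.22, 2.22, 1.65 and 3.06. In each of these 5, SpG Nfya-CKO was above undiff. SpG, diff. SpG and pL. Other somatic cells, the population with most Leydig RNA, were also high, at 1.5 for Atp5j2, 5.37 for Cox6c, 1.38 for Uqcr10, 7.63 for Cox6a1 and 2.57 for Ndufa2, whereas Sertoli cells were at 0.352, 1.36, 0.271, 2.22 and 0.947. The part of somatic RNA in these values was not tested. The highest assembly factor of complex I was Ndufaf8, at a log2 ratio of 0.84, and the highest member of complex II was Sdhb, at 0.77.

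Of the 5 nuclear members at least 2-fold lower, 4 had symbols of complex IV. Cox7a2l was at 1.22 in undiff. SpG, 0.274 in diff. SpG, 0.775 in pL and 0.337 in SpG Nfya-CKO, a log2 ratio of -1.59. Cox7c was at 2.68, 0.674, 2.21 and 0.996, and Atp5g1 at 1.22, 0.390, 1.04 and 0.551. For these 3, diff. SpG was lower still than SpG Nfya-CKO, while pL was not. Cox8c and Cox6b2, with log2 ratios of -1.33 and -1.01, were the other 2. Their counterparts were at 1.34 for Cox8a, against 1.18 in undiff. SpG, and 2.94 for Cox6b1, against 1.67. Markers of later cells were also lower in SpG Nfya-CKO, with Ldhc at 0.0492 against 0.579 and Acrv1 at 0.00975 against 0.157. The part of such RNA in the undiff. SpG values of Cox8c and Cox6b2 was not tested.

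**Figure D2:**
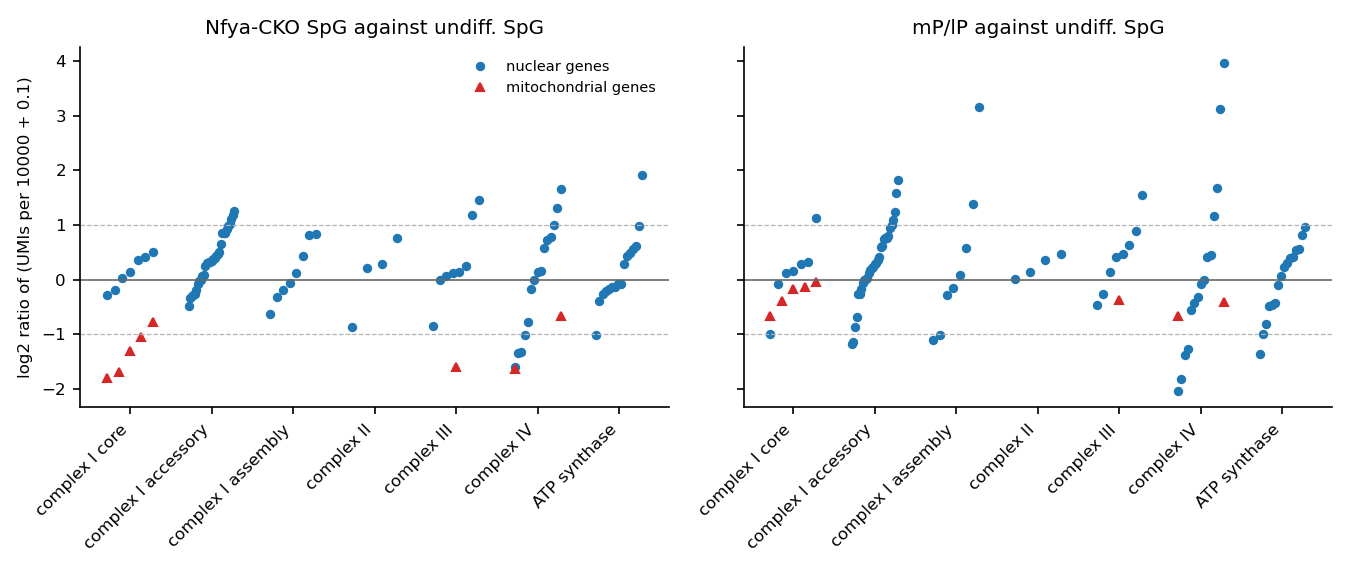
Log2 ratio of mean UMIs per 10000 plus 0.1 for each member with a mean of at least 0.05, by complex, in SpG Nfya-CKO (left) and mP/lP (right) against undiff. SpG, which both panels share as control. Circles are nuclear genes, triangles are mitochondrial genes, dashed lines mark a 2-fold difference, and all 8 triangles lie below 0 in both panels.

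Mitochondrial genes are set beside each other per kb of gene. In undiff. SpG, the 6 genes that are nearly whole in a nuclear copy described next were at 0.0756 to 0.307 UMIs per 10000 and kb, and the other 7 at 0.481 to 27.7. Undivided values follow, for comparison of each gene with itself. In undiff. SpG, mt-Cytb was at 31.7 UMIs per 10000, mt-Nd1 at 21.5, mt-Nd4 at 20.6, mt-Co1 at 9.32, mt-Nd2 at 7.89 and mt-Nd5 at 3.75. By contrast mt-Co2 was at 0.0729, mt-Nd3 at 0.0717, mt-Atp6 at 0.0646, mt-Atp8 at 0.0626, mt-Co3 at 0.0593 and mt-Nd4l at 0.0499, and mt-Nd6, encoded on the other strand, at 0.25. A search of the nuclear chromosomes of GRCm38.p6 found a copy of mitochondrial DNA on chromosome 1, from 24611535 to 24616188, a span of 4654 bases. It matched mt-Atp6, mt-Atp8, mt-Co2, mt-Co3 and mt-Nd4l over their whole length with 0 mismatches, and mt-Nd3 over 345 of 348 bases. The authors kept only RNA reads with 1 place of alignment. Stretches of 100 bases of mt-Co3 and of a gene without an identical copy, mt-Cytb, are shown beside their best nuclear matches, with capitals for bases that differ.
mt-Co3 (chrM:8607-8706, plus strand): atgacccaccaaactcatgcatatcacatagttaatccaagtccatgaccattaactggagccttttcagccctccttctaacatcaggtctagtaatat
mt-Co3 nuclear copy (chr1:24613872-24613971, minus strand): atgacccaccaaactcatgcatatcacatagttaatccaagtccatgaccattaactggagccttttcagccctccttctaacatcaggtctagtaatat
mt-Cytb (chrM:14146-14245, plus strand): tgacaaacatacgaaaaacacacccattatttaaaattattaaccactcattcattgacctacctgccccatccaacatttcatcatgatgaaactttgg
mt-Cytb nuclear copy (chr4:80003990-80004089, plus strand): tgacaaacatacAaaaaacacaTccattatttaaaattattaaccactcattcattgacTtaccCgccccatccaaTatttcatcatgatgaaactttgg
The stretch of mt-Co3 has 0 differences and that of mt-Cytb 5.

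The 6 genes with at least 99.1% of their length in identical runs of 71 or more bases, the length of the cDNA read, were at most at 0.172 UMIs per 10000 in any population. That highest value is mt-Co2 in unknown cells, and it carried mt-Co2, the 1 of the 6 that was compared, past the minimum mean. The other 7 genes were at 3.75 or more in undiff. SpG except mt-Nd6. mt-Nd4 shares 63.6% of its length but none of its last 300 bases in such runs. mt-Co1 is an exception in this pattern, with 71.5% of its length and all of its last 300 bases in identical runs and a level of 9.32. The part of the nuclear copies in these levels was not tested. The summed level of the 6 was 0.381 in undiff. SpG, against 95 for the other 7, so the sum over all mitochondrial members is mostly that of the latter.

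**Figure D3:**
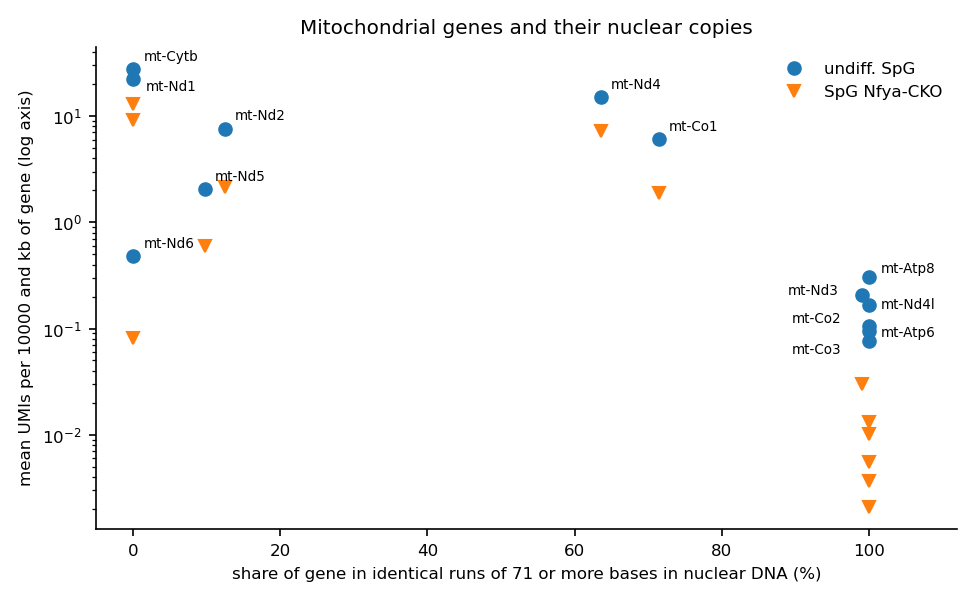
Mean UMIs per 10000 and kb of gene (log axis) of the 13 mitochondrial genes in undiff. SpG (circles) and SpG Nfya-CKO (triangles) against the percent of each gene in runs of at least 71 identical bases in nuclear DNA. The 6 genes at 99.1% or more lie at 0.307 or less in undiff. SpG, under the other 7.

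The mitochondrial share of UMIs is the 1 value of these genes that could be given per library. Counted from the cell table, with exact Clopper-Pearson intervals that cover counting error only, it was 1.02% (95% interval 1.01 to 1.02) in 1292 undiff. SpG and 0.387% (0.383 to 0.391) in 491 SpG Nfya-CKO. Among undiff. SpG, the share was 1.18% in 646 cells at 11 dpp, 0.870% in 262 cells at 17 dpp, 0.419% in 280 cells at 25 dpp and 1.27% in 102 Cre/+ cells. The 25 dpp library thus lay close to SpG Nfya-CKO, and the Cre/+ library of the same age and method was farthest from it. Without cells that share a barcode with another library, the share was 0.381% in 316 SpG Nfya-CKO and 1.24% in 44 Cre/+ undiff. SpG. In other somatic cells the share was 0.805% in 341 Cre/+ cells and 0.463% in 4633 Nfya-CKO cells, and without shared barcodes 1.04% in 24 and 0.764% in 1003. Both Cre/+ values without shared barcodes rest on fewer than 50 cells. Without shared barcodes, other somatic cells had 0.760% at 11 dpp, 0.798% at 17 dpp and 0.573% at 25 dpp, so Nfya-CKO was within the range of the wild-type libraries there. With 1 library each, library and genotype cannot be told apart.

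In mP/lP, the share was 0.808% at 17 dpp, 0.579% at 25 dpp and 1.15% in Cre/+. The 25 dpp library was the lowest in every germ cell population with at least 50 of its cells, from 0.419% in undiff. SpG to 0.885% in L/Z/eP, compared with the other wild-type and Cre/+ libraries of at least 50 cells. Sertoli cells had 1.34% at 11 dpp and 1.23% at 17 dpp. Cells at or above 5% had been removed by the authors, and the library medians ran from 0.504% in Nfya-CKO to 1.17% at 11 dpp.

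**Figure D4:**
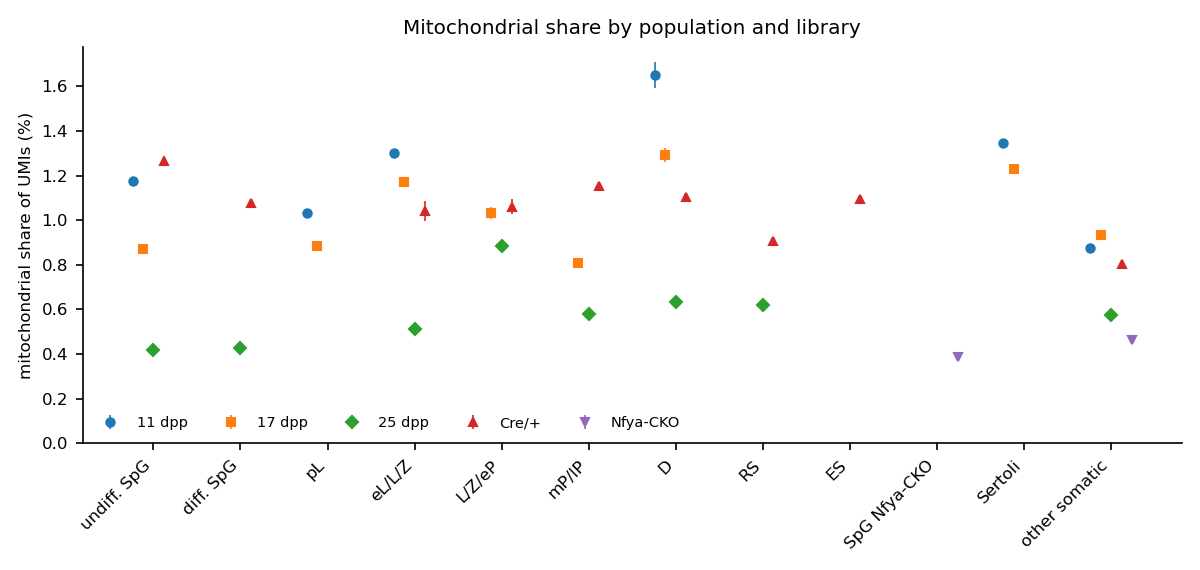
Mitochondrial share of UMIs (percent) by population for each library with at least 50 cells of that population, with exact 95% intervals that are mostly smaller than the symbols. The 25 dpp library lies at 0.419% in undiff. SpG and SpG Nfya-CKO at 0.387%, while Cre/+ undiff. SpG lie at 1.27%.

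Single mitochondrial genes were all lower in SpG Nfya-CKO. mt-Nd2 was at 7.89 in undiff. SpG and 2.21 in SpG Nfya-CKO, mt-Nd5 at 3.75 and 1.10, mt-Co1 at 9.32 and 2.92, and mt-Cytb at 31.7 and 10.5. mt-Nd1 differed least of the high genes, at 21.5 and 12.5, a log2 ratio of -0.78 against -1.79 for mt-Nd2. In mP/lP all 8 were below undiff. SpG too, by log2 ratios of -0.04 for mt-Nd4 to -0.67 for mt-Co1, and none was 2-fold apart. This pooled comparison depends on the makeup of libraries, since the share in mP/lP was lower than in undiff. SpG within Cre/+ and at 17 dpp and higher at 25 dpp. The ratio of the mitochondrial to the nuclear sum, compared between populations only, was 1.42 in undiff. SpG, 0.907 in mP/lP, 0.434 in SpG Nfya-CKO, 2.33 in Sertoli cells and 0.662 in other somatic cells.

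In Sertoli cells against undiff. SpG, 1 nuclear member (1.12%) was at least 2-fold higher, against 10.1% of all genes, and 6 (6.74%) at least 2-fold lower, against 16.9%. The 1 was X-linked Ndufa1, at 1.05 against 0.364. Besides the 3 testis paralogs, the lower ones were the assembly factor Ndufaf2, at 0.312 against 0.988, Ndufb9, at 0.543 against 1.24, and Ndufv1, the subunit that binds NADH, at 0.172 against 0.447. All 8 mitochondrial members tested were higher, with mt-Nd2 at 14.4 against 7.89 and mt-Cytb at 49.0 against 31.7. The median of the nuclear members was -0.21, and that of all genes -0.29. Relative to the median of all genes, the median of the nuclear members was 0.083, of the opposite sign. Sertoli cells, mP/lP and SpG Nfya-CKO were all compared with the same undiff. SpG, so these comparisons share their control.

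Chromatin at the nuclear members was read by scATAC-seq as 1 value per gene, here scaled to 1000000 over nuclear genes. In SpG Nfya-CKO against undiff. SpG, 62 of 92 nuclear members (67.4%) had a ratio under 1, against 42.0% of 30374 nuclear genes. Signal in undiff. SpG was higher at the members, with a median of 50.1 against 21.0, and among the 6655 genes with signal within the quartiles of the members, 54.1% had a ratio under 1. The median ratio was 0.92 for the members, 1.06 for all nuclear genes and 0.98 for the genes of like signal. At least 1.5-fold lower were 5 members, against 4.27% of all genes, and at least 1.5-fold higher were 2, against 16.5%. Among genes of like signal, 1.73% were at least 1.5-fold lower and 0.841% higher. Of the 46 members within the same quartiles, 35 had a ratio under 1, 3 were at least 1.5-fold lower and 0 higher. The 5 were Ndufa12 (42.9 in undiff. SpG, 26.2 in SpG Nfya-CKO), Atp5g1 (106.3 and 65.5), Cox6b1 (30.1 and 18.5), Ndufa6 (60.7 and 37.9) and Cox7a2l (52.9 and 33.8). In RNA, Atp5g1 and Cox7a2l were also at least 2-fold lower, while the log2 ratio was -0.28 for Ndufa12, 0.65 for Ndufa6 and 0.78 for Cox6b1, none of them 2-fold. The 2 were Cox4i2 (12.8 and 22.3) and Ndufaf6 (33.2 and 51.8). TSS enrichment, a ratio of coverage at start sites over that of flanks, had a mean of 7.99 in SpG Nfya-CKO and 12.7 in undiff. SpG, and its part in the ratios was not tested.

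The ratio varied with the number of CCAAT matches in the promoter. It was under 1 in 25 of 42 members with 0 matches, 15 of 19 with 1 match and 12 of 15 with a pair or more, with medians of 0.96, 0.90 and 0.83. Over genes with a window whose symbol was also in the scATAC-seq matrix with signal in either population, 40.6% of 11199 genes with 0 matches, 42.6% of 5338 with 1 and 62.1% of 2680 with more had a ratio under 1. Signal in undiff. SpG also differed between these classes, with medians of 45.3, 57.3 and 66.6 among members and of 28.8, 25.9 and 46.4 among all genes. Among genes with signal within the quartiles of the members, 51.2%, 55.4% and 70.6% had a ratio under 1. Atp5g1 and Cox6b1, whose windows are printed above, have 5 and 3 matches, Ndufa6 has 1, and Ndufa12 and Cox7a2l have 0. Cox6b2, with 3 matches, was at 77.0 in undiff. SpG and 60.6 in SpG Nfya-CKO, and Cox7b2, also with 3, at 39.3 and 41.7.

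**Figure D5:**
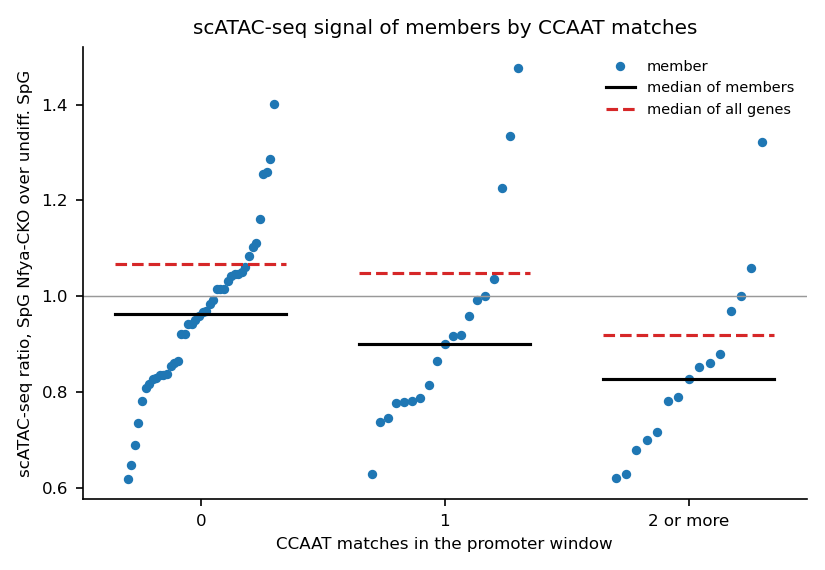
Ratio of scATAC-seq values in SpG Nfya-CKO over undiff. SpG for the 76 members with a promoter window, by the number of CCAAT matches on either strand. Each circle is a member, solid lines are member medians (0.96, 0.90 and 0.83) and dashed lines medians of all genes (1.07, 1.05 and 0.92).

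In mP/lP against undiff. SpG, 35 nuclear members (38.0%) had a scATAC-seq ratio under 1, against 41.4% of 30587 genes and 57.4% of genes of like signal. At least 1.5-fold higher were 13, against 22.6%, and at least 1.5-fold lower 2, against 21.1%. Among genes of like signal, 6.39% were at least 1.5-fold higher and 31.3% lower, and of the 46 members within the same quartiles 3 were higher and 1 lower. The 3 highest were Cox8c (14.4 and 40.4), Ndufa1 (13.2 and 36.2) and Ndufaf3 (69.8 and 182.3), which were also higher in RNA. Cox6b2 was at 77.0 and 108.4, a smaller step than in its RNA. The lowest was Atp5d, at 64.2 and 24.8. In Sertoli cells, Cox7b2 was at 8.51, Cox8c at 3.49 and Cox6b2 at 36.0, each under every germ cell population. The median ratio of the nuclear members in mP/lP was 1.13, and 1.02 relative to the median of all nuclear genes. With scaling over all genes, mitochondrial ones included, it was 0.76, and that of all nuclear genes 0.79. At that scaling 79 members were under 1, against 70.8% of nuclear genes. The direction of the median thus depended on the scaling. Mitochondrial genes took 40.6% of the scATAC-seq signal in undiff. SpG and 60.3% in mP/lP. The same share was 46.0% in SpG Nfya-CKO, 31.2% in pL and 64.5% in other somatic cells, and since the assay reads DNA it is not a level of RNA.

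Of 55 further genes of the pathway, 53 were tested. In SpG Nfya-CKO against undiff. SpG, 0 were at least 2-fold higher (4.09% of all genes) and 1 was lower (3.08%), the testis cytochrome c gene Cyct, at 0.221 against 0.679. In mP/lP 3 were higher (13.9% of all genes) and 4 lower (20.8%), with Cyct at 1.89 and the ubiquinone synthesis gene Coq4 among the higher. The general cytochrome c gene Cycs was at 0.156 in undiff. SpG, 0.0559 in mP/lP, 0.131 in SpG Nfya-CKO and 0.608 in Sertoli cells. Tfam, which packs mitochondrial DNA and is a factor for its transcription, was at 0.397 in undiff. SpG, 0.175 in mP/lP, 0.721 in RS and 2.53 in ES. Cyct was thus higher and Cycs lower in mP/lP than in undiff. SpG.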

How the data were processed

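Members and gene lists were chosen with earlier results of these data known. The authors aligned scRNA-seq reads to mm10 with STAR 2.7.10b, used unique alignments and counted each UMI once. With Seurat 5.2.1 they left out cells below 500 genes and cells whose mitochondrial percent reached 5, and with DoubletFinder doublets. scATAC-seq reads were aligned with BWA 0.7.12, and cells were filtered with ArchR 1.0.3. The authors deposited 2 matrices with 1 value per gene and population. Their scale is not described and was taken from the values, which sum to 10000 per population when read as a natural log of 1 plus a mean, so every level per 10000 rests on that reading. The study's methods define promoter accessibility by coverage close to the start site in pooled tracks, and whether the scATAC-seq matrix uses that region is not given in the sources used here. The cell tables deposited by the authors give the count of UMIs and of fragments per cell, the percent of mitochondrial UMIs and TSS enrichment as a ratio. Of 343866 scATAC-seq cells, 31569 carry an scRNA-seq population.

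RNA ratios are log2 values after adding 0.1, over genes whose mean across populations reached 0.05, and scATAC-seq ratios were taken after adding 1. With 1 library per condition no p-value between conditions was computed. 49 cells had no library name. Named genes are all paralogs with their counterparts, mitochondrial and X-linked members, the 5 largest changes in each direction whose mean reached 0.2, and the highest member of each complex. Others were chosen after their values were seen. Values of 1 member that the rule names are not reported here. Copies were sought with BLAST 2.17.0. Scripts ran in Python 3.11.15 with scipy 1.17.1 for exact intervals and pandas 2.3.3 for tables.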

Additional observations from a re-analysis of the deposited data

Results flagged for a closer look

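The mitochondrial share of UMIs in mP/lP minus that in undiff. SpG was -0.062 percentage points in the 17 dpp library, 0.16 in the 25 dpp library and -0.112 in the Cre/+ library. The 25 dpp library moved opposite to the other 2, and with 1 library per condition the difference between libraries was not tested. Over the 3 libraries, which differ in age, the mean difference was -0.0047 ± 0.145 percentage points (SD), with p = 1 in a two-sided exact sign-flip permutation test chosen after seeing the data, whose smallest possible p is 0.25.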

How the results depend on the processing

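No paired analysis was possible because each condition had 1 library, other than between populations of a library, given above for the mitochondrial share. Of 67 named-gene results, 0 reversed, with 183 values near the reported one and 18 moved. Counts of members past 2-fold depend on the pseudocount and the fold. The cause of these shifts was not tested.

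Shares of all genes tested at the same setting stand in parentheses. With a pseudocount of 0.01, 17 nuclear members were higher in SpG Nfya-CKO (10.2%), RS gave 33 lower (18.1%) and a median of -0.92, ES 29 higher (19.2%), 2 lower (14.5%) and a median of 0.74, mP/lP 1 mitochondrial member lower (29.6%), and Sertoli 3 higher (12.99%). With 0.5, SpG Nfya-CKO gave 4 higher (0.774%) and 2 lower (0.623%), mP/lP 6 higher (6.66%) and 2 lower (7.20%), RS 3 lower (2.86%) and a median of -0.41, ES 1 higher (2.81%) and a median of 0.35, and Sertoli 0 higher (5.38%), 1 lower (3.93%) and a median of -0.11, with 2 counterparts of testis paralogs and 0 X-linked members lower in mP/lP, where 4 and 2 were reported.

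At 1.5-fold, SpG Nfya-CKO gave 23 higher (12.5%) and 9 lower (10.5%), mP/lP 24 higher (22.3%) and 14 lower (32.6%) with 2 mitochondrial members lower, RS 59 lower (26.7%), ES 50 higher (24.0%) and 3 lower (17.8%), and Sertoli 6 higher (15.1%) and 13 lower (33.3%). Against diff. SpG as control, 3 members were higher in SpG Nfya-CKO (6.86%), so the share of higher members was above that of all genes against undiff. SpG and not against diff. SpG. Against pL, 12 members were higher (9.05%). The median of the nuclear members was then 0.07, where 0.22 was reported, and that of all genes 0.08. Relative to the median of all genes, RS gave 11 lower (7.54%), ES 7 higher (7.83%), 1 lower (12.2%) and a median of 0.47, and Sertoli 3 higher (13.3%) with a median of 0.083, a reversed sign.

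For scATAC-seq, scaling over all genes gave medians of 0.84 in SpG Nfya-CKO and 0.76 in mP/lP (1.13 as reported, reversed). The medians of all nuclear genes were then 0.98 and 0.79. In mP/lP 79 members were under 1, against 70.8% of nuclear genes. Control pL gave 0.85 in SpG Nfya-CKO, and scaling to the median 1.02 in mP/lP. The mitochondrial share of scATAC-seq signal in SpG Nfya-CKO was 1.13 times that in undiff. SpG, and the share of the nuclear members 0.82 times, the opposite direction.

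The mitochondrial share of UMIs in undiff. SpG was 0.953% as a mean over cells and 1.27% in Cre/+ alone. In SpG Nfya-CKO the mean was 0.392%, in mP/lP 0.803% (Cre/+ 1.15%), and in other somatic cells 0.664% (Cre/+ 0.805%, 0.503% with at least 1000 genes, 0.496% with at least 2000 UMIs). Chosen after seeing the data, omission of the 25 dpp library gave 1.09%, 1.15% and 0.511% in undiff. SpG, mP/lP and other somatic cells, and cells with a barcode of 1 library gave 0.952%, 0.636% and 0.698%, with 0.381% in SpG Nfya-CKO.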
